A study of Mus musculus with 2 samples.

Results

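The microRNA entries described here are the 84 rows of a microRNA array table whose single miRBase accession has a number from 9000 up to 13000, of 739 rows in all. The rule uses that number alone and no intensity, but it was set with earlier results of these data known. These entries make up 11.4% of the table. miRBase is the public registry of microRNA sequences, and its numbers broadly follow the order of registration, so these are the latest mouse entries on the array. The intensities come from 1 array of LY-1, a metastatic derivative of Pam212, and 1 array of Pam212, a spontaneously transformed, non-metastatic mouse keratinocyte line of Balb/c strain. Both lines were grown untreated to confluence in DMEM with 10% FCS, 1 plate of each was used, and total RNA was labelled with the dye Hy5 for the LNA-based arrays. Both share an origin, since LY-1 was derived from Pam212, so neither array stands for normal epidermis, and each line stands as a single culture.

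MicroRNAs are short RNAs that are cut from hairpin precursors and guide Argonaute proteins to messenger RNAs with matching sites. The earliest entries of the registry were mostly found by cloning and by conservation, and include the abundant, widely studied families. Later entries came mostly from deep sequencing of small RNAs. Some entries of that kind have since been withdrawn from the registry as fragments of abundant RNAs such as rRNA and tRNA, which are also part of total RNA. An array detects by hybridisation and reports any labelled RNA that pairs with the capture sequence, whatever its origin.

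Whether particular entries here match rRNA or tRNA was not tested, because 0 of the 84 accessions occurred in the RefSeq tables used for names and sequences. This lack was not particular to late entries, since 0 row identifiers of the whole array occurred there. For the same reason entries are given by accession, no sequence is printed, and the labelled cell type was not checked against marker microRNAs. With no replicate of either line, every difference below is that between 2 arrays, with no test and no error. An intensity depends on the capture sequence as well as on the amount of RNA, so the rank of an entry is a rank of signal and not of abundance.

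The 84 accessions fell into 4 runs of close numbers. The runs held 63 entries numbered 9390 to 9461, 15 numbered 11208 to 11222, 2 numbered 11286 and 11287, and 4 numbered 12771 to 12774. The lowest-numbered entry, MIMAT0009390, read 3.48 units in LY-1 and 6.65 in Pam212. The highest-numbered, MIMAT0012774, read 2.15 units in LY-1 and 3.41 in Pam212. The closest row below the range, MIMAT0007880, had no value on either array, and 0 rows were numbered above the range.

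A value was present for 61 of the 84 late-registered entries in LY-1 (72.6%) and for 64 in Pam212 (76.2%). Of the 203 rows numbered under 1000, the earliest in the registry, 142 had a value in LY-1 (70.0%) and 148 in Pam212 (72.9%). Over all 739 rows the shares were 59.1% in LY-1 and 62.2% in Pam212. The late entries therefore had a value about as often as the earliest rows, and more often than the table as a whole. The meaning of an empty cell was not stated in the sources read here.

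Detection differed between the runs. In the run 11208 to 11222, all 15 entries had a value in LY-1 and 14 had one in Pam212. In the run 9390 to 9461, 42 of 63 had a value in LY-1 and 45 in Pam212, and 11 had none on either array. The entry of the run 11208 to 11222 with no Pam212 value, MIMAT0011215, read 1.28 units in LY-1, close to the lowest values of that array.

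Entries with a value on a single array were dim. The 9 late entries measured in LY-1 only read 0.963 to 1.47 units, and the 12 measured in Pam212 only read 1.02 to 1.93. All 21 lay below 2.26 units, the pooled median of the measured intensities, which serves below as the brightness floor. No late entry was thus bright in one line and empty in the other, which was rare in the whole table too. Of all 739 rows, 7 (0.947%) reached the floor in LY-1 with no Pam212 value, and 4 (0.541%) the other way. Rows with a value in LY-1 only were 10.7% of late entries and 11.2% of all rows. Rows with a value in Pam212 only were 14.3% of each.

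Late entries were either very bright or near the bottom of the scale. Of the 73 entries with a value on at least 1 array, 19 reached 100 units on one or both arrays, and 51 stayed under 10. Only 3 had a brighter value between 10 and 100 units. The median over late entries with a value was 2.29 units in LY-1 and 2.48 in Pam212, below the medians of the rows numbered under 1000, which were 5.69 in LY-1 and 5.14 in Pam212. Their upper quartile lay the other way, at 137 units in LY-1 and 138 in Pam212, against 64.9 and 54.3 in the earliest rows.

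**Figure D1:**
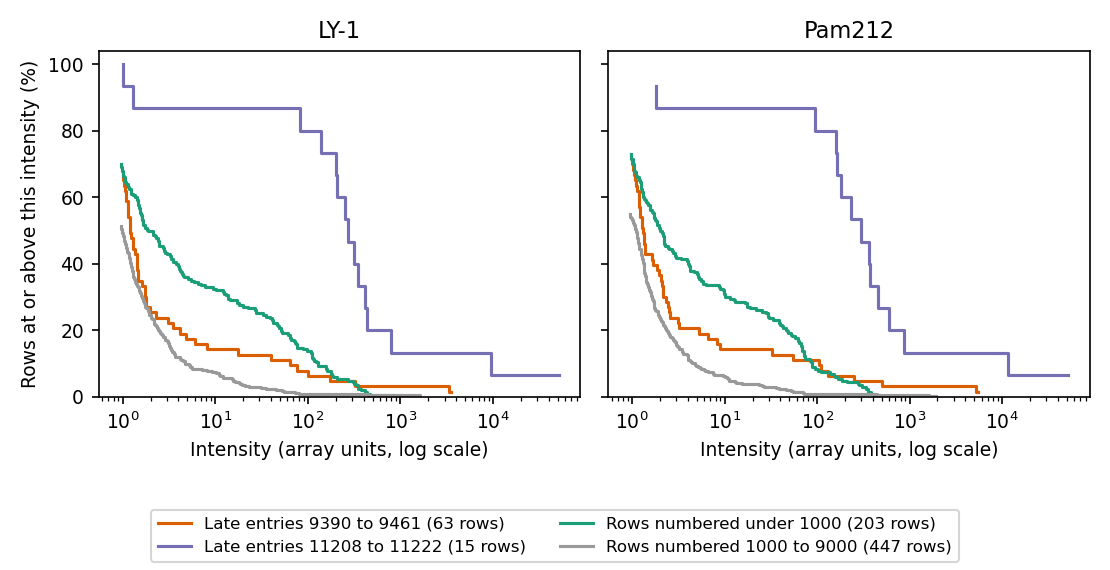
Share of rows (y axis, percent of all rows of a class) that reached a given intensity (x axis, array units, log scale), for LY-1 (left) and Pam212 (right), with 1 line for each of 4 classes of accession number and the 6 late entries numbered 11286 to 12774 left out. The run 11208 to 11222 stays at 86.7% from about 2 to about 80 units on both arrays, whereas most of the run 9390 to 9461 lies at the dim end.

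The run 11208 to 11222 held most of the bright entries. In it, 12 of 15 entries reached 100 units in LY-1 and the same number did in Pam212. In the run 9390 to 9461 this held for 4 of 63 in LY-1 and 7 of 63 in Pam212. In the other 2 runs no entry passed 5.19 units. Among all rows of the table at 100 units or more, late entries were 16 of 48 in LY-1 (33.3%) and 19 of 40 in Pam212 (47.5%).

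The 4 brightest rows of each array were late entries, and the same 4 in both lines. MIMAT0011218 read 51140 units in LY-1 and 51459 in Pam212. MIMAT0011221 read 9627 units in LY-1 and 11555 in Pam212. MIMAT0009401 read 3540 units in LY-1 and 5253 in Pam212, and MIMAT0009414 read 3317 in LY-1 and 5468 in Pam212. No row numbered under 1000 passed 830 units in LY-1 or 472 in Pam212. How close MIMAT0011218 came to the scanner's ceiling was not tested.

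Late entries carried 83.2% of the summed intensity of the LY-1 array and 86.0% of that of the Pam212 array. Rows numbered under 1000 carried 10.1% in LY-1 and 7.50% in Pam212. Most of the late entries' share came from the run 11208 to 11222, with 74.3% in LY-1 and 72.9% in Pam212. The run 9390 to 9461 held 8.92% in LY-1 and 13.1% in Pam212.

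The shares rest on a few entries. MIMAT0011218 alone held 59.1% of the sum in LY-1 and 56.2% in Pam212. With it left out of both parts and total, late entries held 58.9% of what remained in LY-1 and 68.1% in Pam212. Without the 4 brightest, they held 23.1% in LY-1 and 28.3% in Pam212, below the 46.3% and 38.4% of the rows numbered under 1000.

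**Figure D2:**
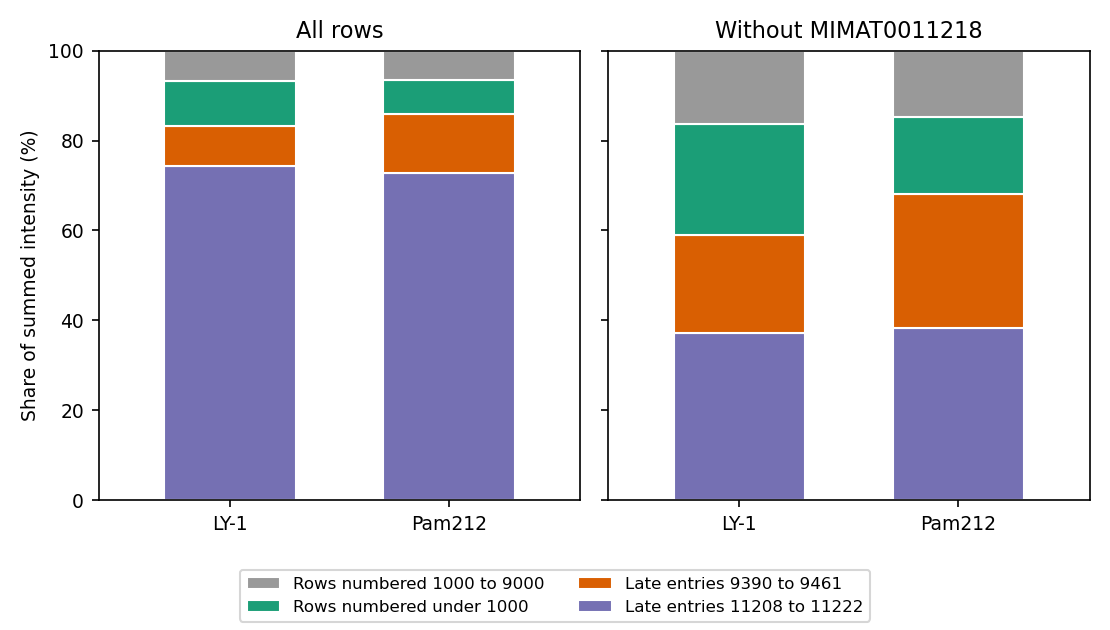
Share of summed intensity (y axis, percent) in LY-1 and Pam212 by class of accession number, over all rows (left) and without MIMAT0011218 (right). The 11 rows outside these classes hold under 0.03% of either sum and are not drawn. Late entries fill 83.2% of the LY-1 bar and 86.0% of the Pam212 bar at left, and 58.9% and 68.1% at right.

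The sum over late entries was 71977 units in LY-1 and 78805 in Pam212, a difference of -6828 units. MIMAT0009414, MIMAT0011221 and MIMAT0009401 made up 84.8% of that difference, at -2151, -1928 and -1713 units. MIMAT0011218 added -318 units. The rows that are not late entries summed to 14516 units in LY-1 and 12826 in Pam212, 1689 more in LY-1. That surplus lay in the rows numbered under 1000, with 8730 units in LY-1 and 6877 in Pam212, while the rows numbered from 1000 up to 9000 summed to 5769 in LY-1 and 5943 in Pam212.

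Ranks below the top 4 were more mixed. Among the 10 brightest rows, 5 were late entries in LY-1 and 7 in Pam212. Among the 40 brightest, 16 were late entries in LY-1 and 19 in Pam212, 12 of them on each array from the run 11208 to 11222.

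The remaining bright entries of the run 11208 to 11222 ran from 83.0 to 796 units in LY-1 and from 94.3 to 865 in Pam212. MIMAT0011216 read 796 units in LY-1 and 865 in Pam212, and it ranked 9 and 7 on those arrays. MIMAT0011210 read 440 units in LY-1 and 593 in Pam212. MIMAT0011222 read 415 units in LY-1 and 455 in Pam212.

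These 3 were lower in LY-1, with log2 differences (LY-1 minus Pam212, no pseudocount) of -0.12, -0.43 and -0.13. MIMAT0011210 had the largest difference among the entries of this run past the floor, a value 1.35-fold lower in LY-1. MIMAT0011214 read 351 units in LY-1 and 377 in Pam212. MIMAT0011220 read 319 units in LY-1 and 365 in Pam212. MIMAT0011211 read 274 units in LY-1 and 301 in Pam212. Each of these 3 was under 1.2-fold lower in LY-1.

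Only 3 bright entries of the run were higher in LY-1. MIMAT0011208 read 203 units in LY-1 and 162 in Pam212, a log2 difference of 0.32. MIMAT0011217 read 207 units in LY-1 and 180 in Pam212, a log2 difference of 0.20. MIMAT0011213 read 254 units in LY-1 and 231 in Pam212, a log2 difference of 0.13. After quantile normalization, which forces the 2 arrays to 1 distribution, MIMAT0011217 and MIMAT0011213 turned to -0.05 and -0.21, and MIMAT0011208 stood at 0.00, so the direction of these 3 depends on the scaling.

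The last bright entries of the run were the dimmest, MIMAT0011219 at 137 units in LY-1 and 160 in Pam212, and MIMAT0011209 at 83.0 in LY-1 and 94.3 in Pam212. The run also held 2 entries at the bottom of the scale. MIMAT0011212 read 1.01 units in LY-1 and 1.79 in Pam212, and MIMAT0011215 has been given above. Neighbouring accession numbers in this run thus differed widely in signal, as with MIMAT0011218 and MIMAT0011219.

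Across the 13 entries of the run 11208 to 11222 past the floor, log2 differences ran from -0.43 to 0.32, with a median of -0.13 and an SD across entries of 0.20. All 13 were within 1.5-fold, against 146 of 252 rows of the table past the floor. With both values at 100 units this held for 12 of 12 entries of the run and 28 of 35 rows of the table, so most rows that bright were as close. The order of intensity over the 14 entries measured on both arrays was the same in the 2 lines, a Spearman's rho of 1.00. This rho is across entries that share 2 arrays and their capture sequences, and it describes these arrays only.

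**Figure D3:**
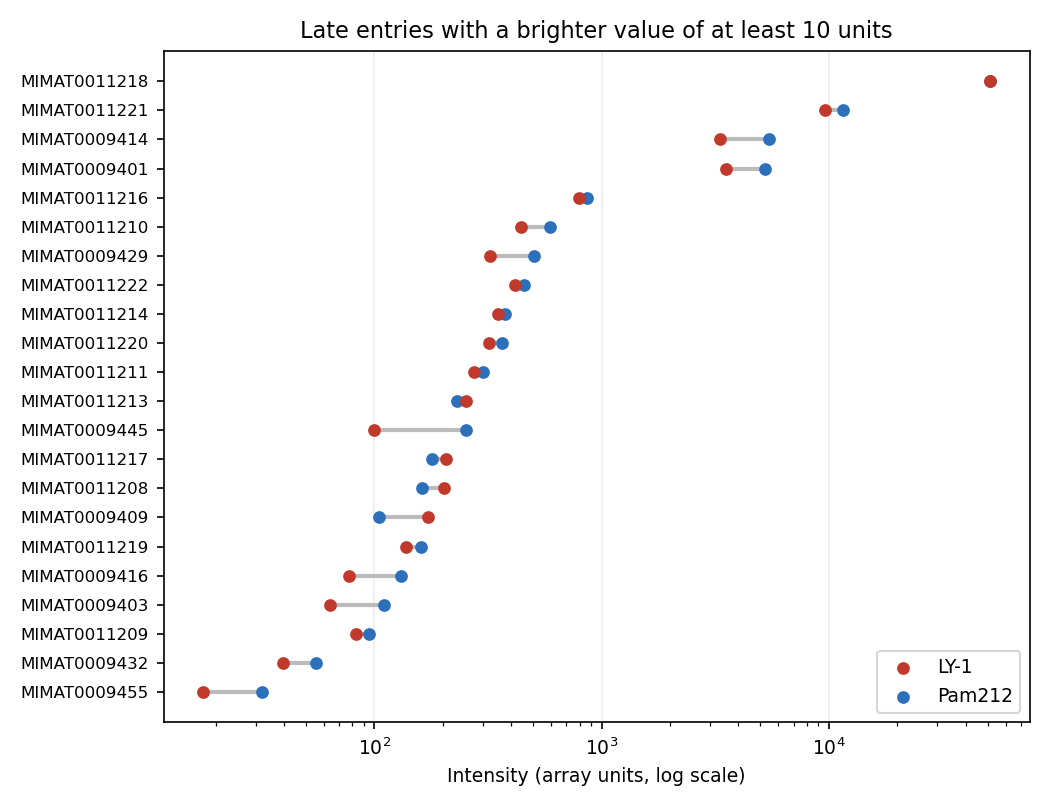
Intensity (x axis, array units, log scale) of the 22 late entries whose brighter value reached 10 units, in LY-1 (red) and Pam212 (blue), ordered by the brighter value, with a grey bar joining the 2 values of an entry. The LY-1 point lies left of the Pam212 point in 18 of the 22 entries, and MIMAT0009445 has the widest gap, at 99.8 against 253 units.

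The run 9390 to 9461 was dimmer and leant further to lower values in LY-1. Of its 63 entries 20 were past the floor, and 17 of these 20 had a negative log2 difference. The median was -0.60, a median value of 0.658 times that of Pam212, with quartiles at -0.80 and -0.12. With both values at the floor the median was -0.57 over 15 entries, 13 of them lower in LY-1. With no floor it was -0.27 over 35 entries, 25 of them lower, so its size depends on the floor. Among the 9 entries whose brighter value reached 10 units, 8 were lower in LY-1.

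MIMAT0009445 stood at 99.8 units in LY-1 and 253 in Pam212, 2.54-fold lower in LY-1. It was the largest difference of any late entry past the floor, and it ranked 49 in LY-1 and 25 in Pam212. Its log2 difference was -1.34, and it ran from -1.72 to -1.33 over the scalings and the pseudocount tried. The next in size, MIMAT0009394, read 1.48 units in LY-1 and 3.12 in Pam212, 2.11-fold lower in LY-1, with the LY-1 value below the floor. With a pseudocount of 1.02 units its log2 difference was -0.73, under 2-fold.

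The brightest pair of the run, MIMAT0009401 and MIMAT0009414, were 1.48-fold and 1.65-fold lower in LY-1. Their order of brightness turned round between the lines, with MIMAT0009401 the brighter in LY-1 and MIMAT0009414 in Pam212. Quantile normalization moved their log2 differences to 0.08 and -0.08, because rows at ranks 3 and 4 are then given the same values on both arrays. The other scalings kept both lower in LY-1, at -0.61 to -0.43 for MIMAT0009401 and -0.76 to -0.58 for MIMAT0009414.

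Further bright entries of the run were lower in LY-1 by like amounts. MIMAT0009429 read 323 units in LY-1 and 503 in Pam212, 1.56-fold lower in LY-1. MIMAT0009416 read 77.3 units in LY-1 and 131 in Pam212, 1.70-fold lower in LY-1. MIMAT0009403 read 64.1 units in LY-1 and 110 in Pam212, 1.72-fold lower in LY-1.

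The 2 entries of middle brightness followed the same direction. MIMAT0009432 read 39.7 units in LY-1 and 55.4 in Pam212, 1.40-fold lower in LY-1. MIMAT0009455 read 17.6 units in LY-1 and 32.1 in Pam212, 1.82-fold lower in LY-1. Without MIMAT0009409, therefore, every entry of this run that reached 10 units was lower in LY-1 in the values as deposited.

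MIMAT0009409 was the exception. It read 173 units in LY-1 and 105 in Pam212, 1.65-fold higher in LY-1, with a log2 difference of 0.72 that stood at 0.23 after quantile normalization. The other entries of the run past the floor and higher in LY-1 were dim. MIMAT0009427 read 3.11 units in LY-1 and 1.83 in Pam212, and MIMAT0009438 read 4.18 in LY-1 and 3.20 in Pam212.

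Dim entries of the run past the floor were mostly lower in LY-1, but the floor itself fixed the direction of some. Among them MIMAT0009394, MIMAT0009404, MIMAT0009412 and MIMAT0009461 passed it through Pam212 alone, so they could only be lower in LY-1. MIMAT0009412 read 1.99 units in LY-1 and 2.54 in Pam212. MIMAT0009427 passed the floor through LY-1 alone and could only be higher there. MIMAT0009390, with the values given above, was 1.91-fold lower in LY-1. MIMAT0009461 read 1.19 units in LY-1 and 2.32 in Pam212, 1.94-fold lower in LY-1. MIMAT0009404 read 1.61 units in LY-1 and 2.51 in Pam212, 1.56-fold lower in LY-1. The LY-1 values of the last 2 lay below the floor, where a small offset moves a ratio most: with the pseudocount their log2 differences were -0.59 and -0.42, against -0.96 and -0.64 without it.

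Entries near equality in this run were MIMAT0009457 and MIMAT0009423. MIMAT0009457 read 8.05 units in LY-1 and 8.26 in Pam212, and MIMAT0009423 read 2.29 in LY-1 and 2.45 in Pam212. In the smallest runs, 3 of 6 entries were past the floor. MIMAT0011287 read 2.61 units in LY-1 and 2.12 in Pam212, MIMAT0011286 read 3.74 in LY-1 and 5.19 in Pam212, and MIMAT0012774 has been given above. MIMAT0011287 passed the floor through LY-1 alone and MIMAT0012774 through Pam212 alone, so the floor fixed their direction too.

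**Figure D4:**
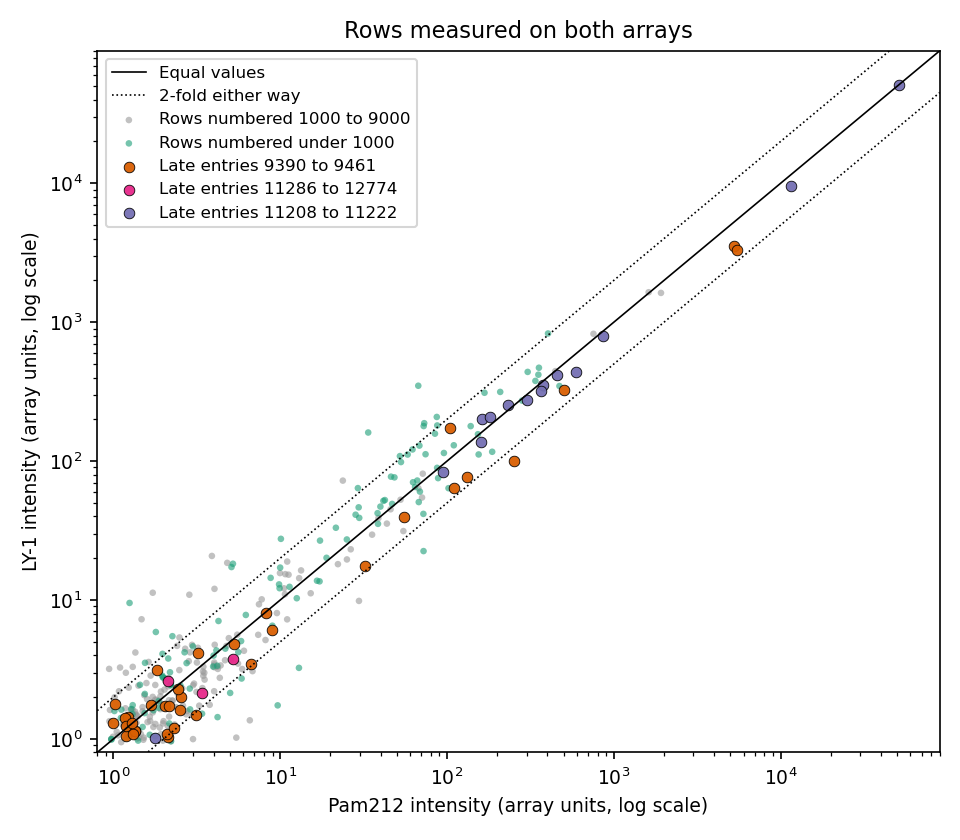
Intensity in LY-1 (y axis) against Pam212 (x axis), both in array units on log scales, for rows measured on both arrays; the solid line marks equal values and the dotted lines 2-fold differences either way. Entries of the run 11208 to 11222 follow the line of equality up to MIMAT0011218 at 51140 units in LY-1 and 51459 in Pam212, and most bright entries of the run 9390 to 9461 lie below it.

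Across both larger runs and the smaller ones, 36 of the 84 late entries were past the floor, meaning that both arrays had a value and the brighter one reached 2.26 units. Of these 36, the count at least 2-fold higher in LY-1 was 0, where the whole table had 32 of 252 (12.7%). At least 2-fold lower were 2 of 36 (5.56%), MIMAT0009445 and MIMAT0009394, against 16 of 252 in the whole table (6.35%). MIMAT0009394 passed the floor through its Pam212 value alone. With both values at the floor, 1 of 29 late entries and 6 of 186 rows of the table (3.23%) were at least 2-fold lower. After quantile normalization the counts were 6 of 36 late entries (16.7%) and 22 of 252 rows (8.73%), so how the share of lower entries compares with the table depends on the scaling. Among the 103 rows numbered under 1000 past the floor, 17 reached that size upwards (16.5%) and 7 downwards (6.80%).

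At a threshold of 1.5-fold, 2 of 36 late entries were higher (5.56%), against 63 of 252 rows of the table (25%). Lower were 11 of 36 (30.6%), against 43 of 252 (17.1%). The floor fixed the direction of some of these. MIMAT0009394, MIMAT0009404, MIMAT0009461 and MIMAT0012774, counted as lower, passed it through Pam212 alone, and MIMAT0009427, counted as higher, through LY-1 alone. With both values at the floor, 21 of 29 late entries and 123 of 186 rows of the table were within 1.5-fold. Counts by direction were not made there. At 3-fold, 0 late entries were lower, against 7 of 252 rows (2.78%).

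Most late entries were shifted by less than these thresholds. The median log2 difference of the 36 late entries was -0.24, that of the 103 rows numbered under 1000 was 0.29, and that of all 252 rows past the floor was 0.03. The gap between late entries and the earliest rows was -0.54. A negative difference was found in 29 of the 36 late entries (80.6%), in 32 of the 103 earliest rows (31.1%) and in 122 of all 252 rows past the floor (48.4%). With both values at the floor the counts were 24 of 29 (82.8%), 26 of 83 (31.3%) and 91 of 186 (48.9%). With no floor they were 38 of 52 (73.1%), 44 of 125 (35.2%) and 178 of 354 (50.3%). With 1 array per line, a difference between the cell lines and one between 2 labelling reactions cannot be told apart.

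Late entries also spread less than the earliest rows. The SD of the log2 difference was 0.49 across the 36 late entries and 0.85 across the 103 earliest rows, and the ranges were -1.34 to 0.76 and -2.47 to 2.93. Late entries within 1.5-fold numbered 23 of 36, and the earliest rows 55 of 103. The count was 146 of 252 over all rows past the floor, and 67 of 111 in the rows numbered from 1000 up to 9000. By this count late entries lay close to the table as a whole. Above a geometric mean of 1000 units there were 4 late entries and 0 of the earliest rows, so the spread of the 2 classes is not over like intensities.

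**Figure D5:**
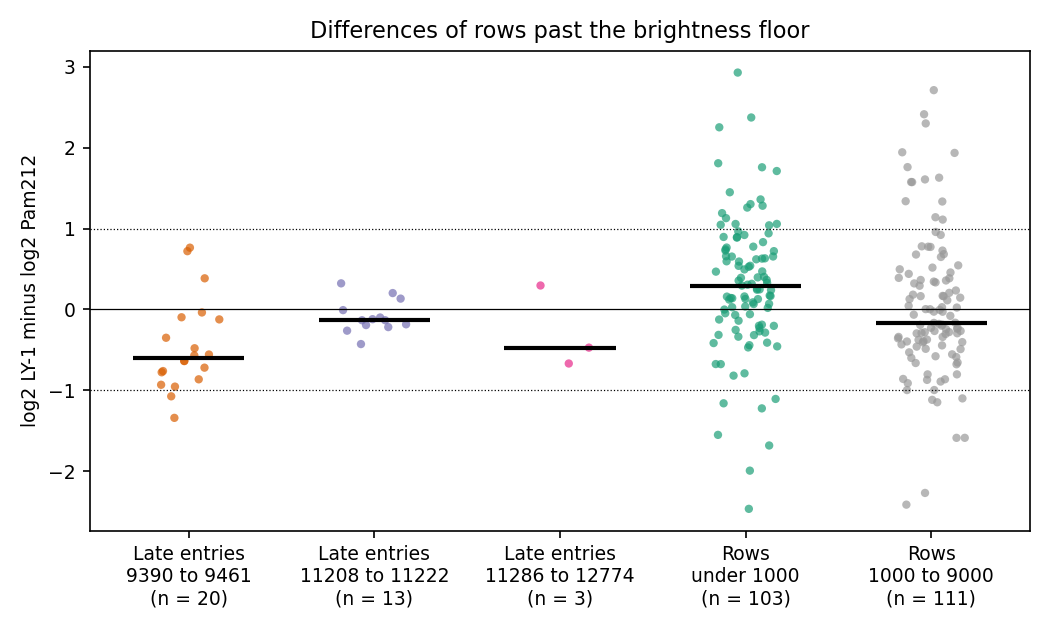
Difference in log2 intensity, LY-1 minus Pam212 (y axis), for rows past the floor, 1 point per row, grouped by accession number, with a thick bar at the median and dotted lines at 2-fold. The median lies at -0.60 for the run 9390 to 9461, -0.13 for the run 11208 to 11222 and 0.29 for rows numbered under 1000; sideways scatter only separates points.

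At like brightness the order of the classes was the same in each band that held both. For a geometric mean of the 2 arrays from 2.26 to 10 units, the median log2 difference was -0.11 over 10 late entries and 0.16 over 37 of the earliest rows. From 10 to 100 units it was -0.63 over 4 late entries and 0.30 over 42 of the earliest rows. From 100 to 1000 units it was -0.13 over 14 late entries and 0.38 over 22 of the earliest rows. The 4 late entries above 1000 units were all lower in LY-1 as deposited, with MIMAT0011218 near equality at a log2 difference of -0.009. After quantile normalization the 4 stood between -0.08 and 0.08.

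The 2 larger runs differed from each other within the same band. From 100 to 1000 units the run 9390 to 9461 had 4 entries with a median of -0.70, of which 3 were lower in LY-1. The run 11208 to 11222 had 10 entries there, with a median of -0.13 and 7 lower in LY-1. The late entries therefore were not uniform, and their joint median of -0.24 depends on how many entries of each run passed the floor.

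The rows numbered from 1000 up to 9000 had a median log2 difference of -0.17 over 111 rows past the floor, and 55.0% of them were lower in LY-1. Most of them were dim: from 2.26 to 10 units their median was -0.19 over 61 rows, below the -0.11 of the 10 late entries of that band. From 10 to 100 units their median was 0.00 over 23 rows, above the -0.63 of the 4 late entries. Set against all other rows with 1 accession, the gap of the late entries was -0.37, smaller than against the earliest rows alone.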

How the data were processed

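MicroRNA levels were measured on 1-colour LNA-based arrays, 1 for LY-1 and 1 for Pam212. The deposited table gives 1 linear intensity per row and array, which the authors had processed before deposit. Scanning, background correction, combining of duplicate spots, scaling and the rule for empty cells are not given in the sources used here. No further scaling was applied: medians over rows measured on both arrays were 3.31 units in LY-1 and 3.21 in Pam212. With 1 array per line, the number of arrays limits the precision, and no p-value was computed.

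Late entries are rows with 1 accession numbered from 9000 up to 13000, and a gap of over 50 numbers starts a new run. Differences are log2 LY-1 minus log2 Pam212 where both values exist and the brighter reaches the pooled median, 2.26 units. A fold of at least 2 is a size threshold, not a test. The entries, the lists and the rule for named entries (10 brightest per array, 10 largest differences each way, ends of the range) were chosen with earlier results of these data known. Other entries that reached 10 units, and MIMAT0009412, MIMAT0011212, MIMAT0011215 and MIMAT0011286, were named after their values were seen. Planned comparisons of length, base composition, shared seeds and marker microRNAs were not run, because accessions are not paired with names or sequences. Alternatives changed the scaling (lowess span 0.5), the floor, the pseudocount (1.02 units), the fold and the class limits. Python 3.11.15, numpy 2.4.6, pandas 2.3.3, scipy 1.17.1, statsmodels 0.14.6 and matplotlib 3.10.9 were used. The calculations were tested on simulated data.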

Additional observations from a re-analysis of the deposited data

How the results depend on the processing

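No paired analysis was possible because each line has 1 array, and leaving out a replicate was not possible for the same reason. The median log2 difference of late entries stayed negative under every alternative run, from -0.60 (numbers below 10000 only) to -0.13 (numbers from 10000 only, and also both values at 100 units, an alternative chosen after seeing the data). The gap to rows numbered under 1000 was likewise negative throughout, at -0.90 for numbers below 10000, -0.43 for numbers from 10000, -0.38 for both values at 100 units and -0.37 against all other rows. Over the scalings alone the gap ran from -0.54 to -0.46. Quantile normalization moved the median of all rows past the floor to -0.08, from 0.03 as deposited, and that of late entries to -0.31.

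Entries at least 2-fold lower in LY-1 numbered 6 of 36 after quantile normalization (22 of 252 in the whole table) against 2 of 36 as deposited (16 of 252). They numbered 1 of 36 with the pseudocount (8 of 252 in the table). With the brighter value at the 75th percentile they numbered 1 of 22 (4 of 121), and with both values there 1 of 22 (2 of 102). With both values at the pooled median they numbered 1 of 29 (6 of 186), and at 100 units 0 of 16 (0 of 35). For numbers from 10000 they numbered 0 of 16. At 1.5-fold, 2 of 36 entries were higher (63 of 252 in the table) and 11 lower (43 of 252), and at 3-fold 0 were lower (7 of 252). Some entries counted at 1.5-fold passed the floor through a single array, which fixed their direction. Stricter floors and thresholds count fewer entries by construction, and the cause of the rise under quantile normalization was not tested.

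Detection was 90.5% on each array for numbers from 10000. The share of summed intensity was 8.92% in LY-1 and 13.1% in Pam212 for numbers below 10000, and 23.1% and 28.3% without the 4 brightest entries, also chosen after seeing the data. Including rows with several accessions changed no value, since 0 of those 5 rows had a number in the range. Of 140 values for 28 named entries, 28 moved by over 0.1 on the log2 scale and 4 turned. Of the 28, 26 kept their direction, and MIMAT0011221 and MIMAT0011208 stood at 0.00 after quantile normalization. MIMAT0009401 turned to 0.0758, MIMAT0011217 to -0.0538 and MIMAT0011213 to -0.21 after quantile normalization, and MIMAT0011218 to 0.34 after the lowess trend was subtracted.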
